A study of Mus musculus with 12 samples.

Results

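The data described here are the difference between 2 effects of RasV12, gene by gene. One is the change from control to RasV12 in CD11b+ phagocytes and the other is the same change in GFP+ cells, both sorted from mouse brain and sequenced as RNA. Each effect was a difference of group means of log2(normalized count + 1), and the effect in GFP+ cells was subtracted from that in CD11b+ cells, so a negative difference means that RasV12 samples moved down in CD11b+ cells relative to GFP+ cells. All 12 of the 12 libraries of the study enter it, and 29835 of the 54547 genes in the table were tested, after removal of those that reached a normalized count of 10 in fewer than 3 libraries. The 4 groups have 3 libraries each. GFP+ cells and CD11b+ phagocytes of the RasV12 groups came from tumors in the brain of Msi1-CreER;RasV12 mice, and those of the control groups from the cerebellum of Msi1-CreER;GFP mice, all on a mixed 129;C57BL/6 background. Every group, the controls too, carries Msi1-CreER, an inducible Cre recombinase driven by the Musashi-1 gene, which is active in neural stem and progenitor cells and in some glia. Tumor and control cerebellum differ in tissue as well as in genotype, and the part of each cannot be told apart. The sources used here do not give age, Cre induction, sort gates or cell numbers. They also do not say that a group's libraries are from different mice, so the spread behind the p-values may be technical in part.

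Ras is a small GTPase that passes signals from growth factor receptors to the MAPK/ERK kinase cascade, and the V12 change keeps it in its active form. Cells that carry it switch on ERK target genes, secreted factors and, as a brake, inhibitors of the cell cycle. CD11b is an integrin chain of microglia, macrophages, monocytes and neutrophils, the cells that engulf debris and respond to cytokines in brain tissue. A gene that goes up in the tumor cells and down in the phagocytes, or the reverse, moves in opposite directions between control and tumor tissue in the 2 populations, which says nothing of whether its levels differ between them within a tumor. A gene that moves the same way in both follows tumor against control tissue whatever the population.

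The libraries held 2951629 to 34601210 reads, recovered as whole multiples of 1 step in the deposited values. RasV12 CD11b+ libraries 1 and 2 were the shallowest, and 1 read there was worth 4.46 and 5.54 normalized counts against 0.358 to 1.5 elsewhere. Itgam, which encodes CD11b, had 5009.8, 5085 and 5256 in control and 1350.2, 1357 and 3101 in RasV12 CD11b+ libraries, and was at 0 to 0.5 in the 6 GFP+ libraries. Ptprc, the leukocyte marker CD45, was at 5256 to 9032 in the CD11b+ libraries and at 1.8 to 181 in the GFP+ libraries. Msi1, the gene whose promoter drives Cre, was low in every group, at 18.6 to 84.9 in GFP+ and 0 to 271 in CD11b+ libraries. The mitochondrial chromosome took 20.1 to 30.4% of counts in GFP+ controls but 1.53 to 2.62% with RasV12. For CD11b+ cells the order was the reverse, with 0.63 to 2.54% in controls and 13.3 to 17.7% with RasV12. Reads on 1521 olfactory, vomeronasal and taste receptor genes, which brain cells hardly use, gave a level per kb of exon that served as a measure of reads unrelated to expression. Laid over every gene, that level would make up 36.7 to 45.6% of the nuclear counts of the phagocytes from tumors. Among control phagocytes it would be 28.5% for library 2 and 2.89 and 3.1% for libraries 1 and 3, and among GFP+ libraries 0.451 to 2.57%. The level that a gene of a given length would get from it in RasV12 CD11b+ libraries is called its background level below. Its source was not tested. In bulk samples, fewer cells of a type and less RNA per cell cannot be told apart.

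**Figure D1:**
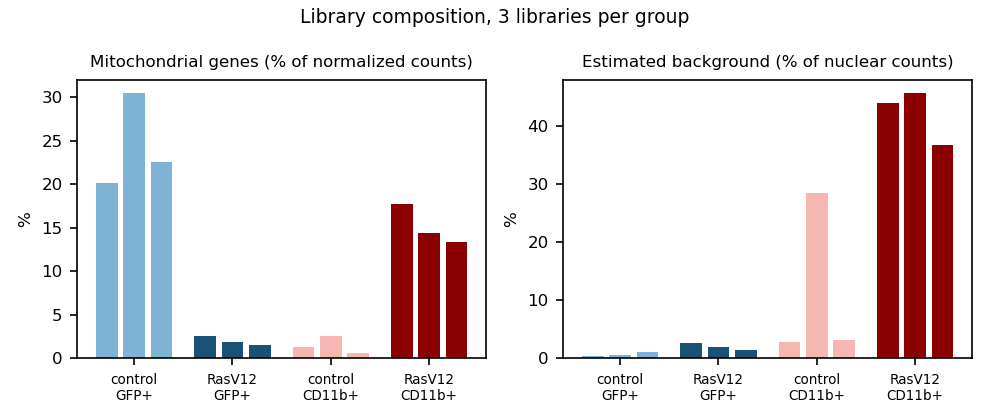
Share of normalized counts on mitochondrially encoded genes (left, %) and estimated background as a share of nuclear counts (right, %), 1 bar per library and 3 libraries per group. The mitochondrial share is low in RasV12 GFP+ and high in RasV12 CD11b+ libraries relative to their controls, and background is 36.7 to 45.6% in the 3 RasV12 CD11b+ libraries and 28.5% in 1 control CD11b+ library.

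For most genes with a called difference the RasV12 effect itself was called in only 1 of the populations. By limma at an adjusted p of 0.05, 615 genes had a higher difference, 2.06% of those tested, and 697 a lower one, 2.34%, together 1312 or 4.40%. Among the 615 the effect itself was called only in GFP+ cells for 315, only in CD11b+ cells for 148 and in neither for 90, and among the 697 these numbers were 310, 238 and 105. The fitted effects had opposite signs for 553 of the 615 and 626 of the 697 genes, beside 13086 of all 29835, and the choice of genes by a large difference favours opposite signs. Both effects were called with opposite signs for 102 genes, 0.342% of those tested, of which 41 rose in GFP+ and fell in CD11b+ cells, 0.137%, and 61 did the reverse, 0.204%. Both effects were called with the same sign for 101 genes, 0.339%, of which 60 rose in both, 0.201%, and 41 fell in both, 0.137%. The background for these overlaps is the share of all genes called in each effect, 4.14% higher and 2.65% lower in GFP+ cells and 2.97% higher and 2.39% lower in CD11b+ cells. Of the genes higher in GFP+ cells, 4.86% were also higher and 3.32% lower in CD11b+ cells, and of those lower in GFP+ cells, 7.7% were higher and 5.18% lower. As shares of the CD11b+ lists, 6.77% and 6.88% of the genes that rose there had risen and fallen in GFP+ cells, and 5.75% of those that fell there had moved each way. Across the 29835 genes the 2 effects had a Pearson correlation of 0.09, a description across genes that share libraries and depth.

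The split of the difference into higher and lower genes depends on the scaling between libraries. The median difference of all genes was 0.07 on the log2 scale as deposited, -0.47 after upper-quartile scaling and -1.04 after subtraction of the background level, and the share of called genes that were higher was 46.9%, 32.2% and 20.7%. For no named gene did the difference, or an effect of a shared gene, take the opposite sign under any setting tried. The CD11b+ effect taken alone was not followed in this way for the other genes. After background subtraction it kept its sign in 59 of the 61 genes that fell in GFP+ and rose in CD11b+ cells. It did so in 51 of the 60 that rose in both, and in all 41 of each other class. A count of higher against lower genes is read against these shifts with scaling. The classes shift as well. Genes that rose in GFP+ and fell in CD11b+ cells outnumbered the reverse by 64 to 38 after upper-quartile scaling, 76 to 36 after background subtraction and 50 to 36 after quantile normalization, where the values as deposited give 41 and 61. Shared rises and falls went from 60 and 41 to 36 and 70, 28 and 72, and 24 and 35 under these settings. The sizes of the classes relative to each other are therefore no result.

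**Figure D2:**
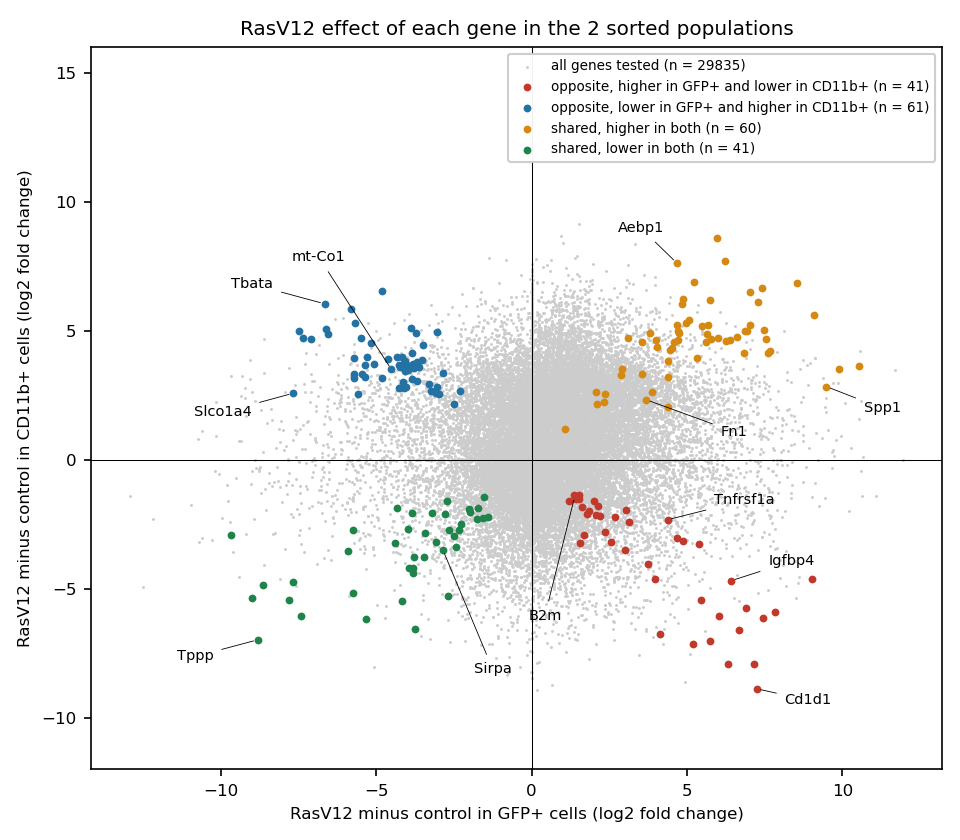
RasV12 effect in GFP+ cells (x axis, log2 fold change) against that in CD11b+ cells (y axis, log2 fold change) for the 29835 genes tested, grey, with the 4 classes of genes called in both effects in colour. The 41 and 61 genes with opposite signs lie in the lower right and upper left, and the 60 and 41 with shared signs in the upper right and lower left.

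Genes that rose in GFP+ and fell in CD11b+ cells included receptors and presentation molecules of immune cells, secreted regulators, and an inhibitor of the cell cycle. The choice of genes called in both effects with opposite signs all but fixes a called difference and libraries that do not overlap, so nothing is read from either. Of all genes 28.2% did not overlap in GFP+ and 27.6% in CD11b+ cells. Their median effect was 3.12 in GFP+ and -3.16 in CD11b+ cells, and 39 of the 41 were protein-coding. In RasV12 CD11b+ libraries 20 of the 41 had a mean at or under their background level, as did 14311 of 29787 genes tested with a known length, so for these the level left in phagocytes is not distinguished from reads unrelated to expression.

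Receptors came first by role. Tnfrsf1a (ENSMUSG00000030341.17, chr6:125349362-125362484), the main receptor for TNF, had normalized counts of 322, 127 and 139 in control and 3815, 3845 and 3532 in RasV12 GFP+ libraries. Phagocytes had 3606, 1169 and 3629 in control and 464, 288 and 891 in RasV12 CD11b+ libraries. RasV12 GFP+ libraries lay at the level of the higher control phagocytes, while RasV12 phagocytes overlapped control GFP+ cells. The effects were 4.38 ± 0.60 (log2 ± SE, adjusted p = 0.000857) and -2.33 ± 0.60 (adjusted p = 0.0396), a difference of -6.71 (95% interval -8.52 to -4.90, adjusted p = 0.000993). Ifngr1 (ENSMUSG00000020009.12, chr10:19591949-19610229), the ligand-binding chain of the interferon-gamma receptor, was at 347, 263 and 430.3 in control and 914, 1098 and 1327 in RasV12 GFP+ libraries, and at 32234, 9482 and 37326 in control and 3146, 2697 and 3012 in RasV12 CD11b+ libraries. It stayed higher in phagocytes than in GFP+ cells in both genotypes, but the gap narrowed, with effects of 1.69 ± 0.46 and -2.93 ± 0.46 and a difference of -4.62 (adjusted p = 0.00217). Fcgr3 (ENSMUSG00000059498.13, chr1:171051174-171064935), a low-affinity receptor for IgG, was at 0 in control GFP+ and at 36.1, 18.3 and 21.8 in RasV12 GFP+ libraries, at least 33.4-fold higher, and fell from 53587, 14871 and 30037 to 4327, 2464 and 4114 in CD11b+ cells. Its GFP+ level stayed far below that in phagocytes. Summed counts of 12 pan-myeloid markers were 690 to 1275 in control and 1035 to 1887 in RasV12 GFP+ libraries against 106644 to 392160 in control and 49334 to 93534 in RasV12 CD11b+ libraries. They thus fell below every control in phagocytes, as Fcgr3, Ifngr1 and Tnfrsf1a did. What part myeloid RNA has in the rise of Fcgr3 in GFP+ libraries, or in the fall of these receptors in CD11b+ libraries, was not tested.

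Other surface receptors were seen at lower levels. Ltb4r1, a receptor for leukotriene B4, was at 0, 0 and 0 in control and 193, 90 and 93 in RasV12 GFP+ libraries, and at 170.1, 119.7 and 106 in control and 0, 0 and 13.2 in RasV12 CD11b+ libraries. Cd300lb, an activating receptor of myeloid cells, was at 0, 0.8 and 0 in control and 339, 317 and 88 in RasV12 GFP+ libraries, and at 738, 15 and 308 in control and 0, 0 and 9.6 in RasV12 CD11b+ libraries. Efnb1, the membrane-bound ligand ephrin-B1, was at 0, 0 and 77.3 in control and 409, 183 and 516 in RasV12 GFP+ libraries, and at 145, 222 and 433 in control and 0, 0 and 0 in RasV12 CD11b+ libraries. All 3 were at or near 0 in RasV12 CD11b+ libraries, under background levels of 106, 222 and 262, and the differences were -12.64, -13.58 and -14.22 (adjusted p = 0.00163, 0.00405 and 0.00316). Where a group holds no reads, the log2 value depends on the added count of 1. As bounds against 3 reads in the empty group, Ltb4r1 was at least 163-fold higher in RasV12 than in control GFP+ cells, and Efnb1 at least 216-fold lower in RasV12 than in control CD11b+ cells.

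Antigen presentation was represented by Cd1d1 and B2m. Cd1d1 (ENSMUSG00000028076.12, chr3:86995834-86999441), which presents lipids to natural killer T cells, had no reads in control GFP+ libraries and 149, 99.7 and 228 in RasV12 GFP+ libraries. It had 386, 484 and 564 in control CD11b+ and no reads in RasV12 CD11b+ libraries. The populations thus traded places, with at least 221-fold more in RasV12 GFP+ cells and at least 343-fold less in RasV12 CD11b+ cells, and no other gene of this group had a larger difference (-16.13, 95% interval -19.12 to -13.13, adjusted p = 3.67e-05). B2m (ENSMUSG00000060802.8, chr2:122147686-122153083), the light chain of MHC class I, had 4706, 4551 and 3888 in control and 8938, 11969.8 and 14123 in RasV12 GFP+ libraries. Among phagocytes it had 45726, 24699 and 24283 in control and 11591, 6651 and 18750.3 in RasV12 CD11b+ libraries. The effects were smaller, 1.39 ± 0.34 (adjusted p = 0.0249) and -1.42 ± 0.34 (adjusted p = 0.0316), and the difference of -2.81 (95% interval -3.84 to -1.78, adjusted p = 0.00659) rests on high counts far above the background level of 65.3. Of 15 tested antigen presentation genes, Tap1, the peptide transporter of the same pathway, was the other one with a called difference, -4.61 (adjusted p = 0.0444), but without single libraries its adjusted p rose to as much as 0.13 in 10 of 12 cases.

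The B2m promoter is shown because interferon and NF-kB signals are known to act on it. Whether they had a part in the B2m changes here was not tested. Its 160 bases before the RefSeq start in GRCm38.p6, chr2:122147527-122147686 on the plus strand, are printed with matches to 2 motifs in capitals. They are an interferon response element (GAAA, 2 bases of any kind, GAAA) from -139 to -130 and, read on the minus strand, an NF-kB motif (GGGA, 2 bases of any kind, TTCC) from -126 to -117.
B2m: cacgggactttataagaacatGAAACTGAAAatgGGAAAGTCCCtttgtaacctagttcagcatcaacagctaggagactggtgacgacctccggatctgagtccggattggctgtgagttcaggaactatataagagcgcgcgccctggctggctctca

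Over the 250 bases before the start, on both strands, 2 of 41 promoters of 30 genes of this class held the NF-kB motif (1.21% of 32851 promoters of all genes), 1 of 41 the interferon response element (2.98%), 2 of 41 an AP-1 motif TGANTCA (6.75%) and 8 of 41 an ETS motif GAGGAAG (10.6%). A match is a run of letters and shows no binding, and genes with several starts count once per start.

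Secreted and growth-related genes of the class had high counts in RasV12 GFP+ cells. Igfbp4 (ENSMUSG00000017493.12, chr11:99041244-99054392), which binds insulin-like growth factors, had 156, 1549 and 1075 in control and 32406, 77229 and 65076 in RasV12 GFP+ libraries. In CD11b+ cells it fell from 838, 873 and 1512 to 22.3, 27.7 and 93.7. The RasV12 GFP+ libraries were above all others and the RasV12 CD11b+ libraries below all others, with effects of 6.41 ± 0.79 and -4.70 ± 0.79 and a difference of -11.11 (95% interval -13.52 to -8.70, adjusted p = 0.000166). Serpine2 (ENSMUSG00000026249.10, chr1:79794197-79861180), an inhibitor of serine proteases, had 9051, 7198 and 6722 in control and 52534, 60163 and 69784 in RasV12 GFP+ libraries, and 17262, 3196 and 13943 in control and 878, 521 and 1112 in RasV12 CD11b+ libraries, a difference of -6.51 (adjusted p = 0.000288). Cdkn2b (ENSMUSG00000073802.4, chr4:89306299-89311039), the CDK4/6 inhibitor p15, had 37.4, 3.2 and 57 in control and 12474, 10117 and 10374 in RasV12 GFP+ libraries. It was low in control CD11b+ libraries, at 32.9, 19.5 and 21.3, and had no reads in RasV12 CD11b+ libraries, at least 16.9-fold lower. The difference of -13.66 (adjusted p = 0.0004) comes mostly from the rise of 9.02 ± 1.07 in GFP+ cells. Perp, a membrane protein and p53 target, had 277, 1133 and 371 in control and 10332, 8437 and 7268 in RasV12 GFP+ libraries, and in CD11b+ cells went from 306, 26.9 and 145 to 0 in all 3 libraries, at least 121-fold lower.

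Some broadly expressed genes changed by a few fold each way. Pdia3, a disulfide isomerase of the endoplasmic reticulum that helps load MHC class I, had 3499, 6672 and 4795 in control and 20649.7, 18108 and 24998 in RasV12 GFP+ libraries, and 18251, 6859.8 and 16899.7 in control and 3676, 5123 and 2755 in RasV12 CD11b+ libraries. Hsp90b1, a chaperone of the same compartment, had 3059.8, 4918 and 3308 in control and 9297, 9739 and 13548 in RasV12 GFP+ libraries, and 9490.5, 5856 and 10233 in control and 3342, 1495 and 4672 in RasV12 CD11b+ libraries. Itgb1, the integrin beta-1 chain, had 2768, 2497 and 2131 in control and 8146, 8671 and 13223 in RasV12 GFP+ libraries, and 6889, 2066 and 8009 in control and 1243, 1960.5 and 1609 in RasV12 CD11b+ libraries. Their differences were -3.91, -3.08 and -3.61 (adjusted p = 0.00148, 0.00781 and 0.00674). Slc29a1, a nucleoside transporter, was at 185, 104 and 272 in control and 6429.8, 6236 and 9896 in RasV12 GFP+ libraries, and at 3266, 564 and 2347 in control and 35.7, 299 and 437 in RasV12 CD11b+ libraries, a difference of -8.67 (adjusted p = 0.00243). The other named genes with large differences were Chst7, a sulfotransferase of sugar chains (-15.06), Fchsd1, an F-BAR protein (-13.27), Eef1kmt4, a methyltransferase of the elongation factor eEF1A (-12.78), and Rhbdf2, which encodes the iRhom2 partner of the TNF sheddase (-12.11). Chst7 for instance was at 98, 0 and 75.3 in control and 2241, 2668 and 3595 in RasV12 GFP+ libraries, and at 724, 434 and 1382 in control and 0, 0 and 30 in RasV12 CD11b+ libraries. The members not named so far with symbols that are not clone names were Ascl2, Tmem37, Swap70, Ehd4, Rnf145, H13, Clic1, Mgat2, Cd164, Unc93b1, Il10rb, Vps36, Camk1, Srgap2, Mef2a, Wsb1, Nptn and Asph, with differences from -10.90 (Ascl2) to -2.74 (Asph), and 3 members had clone names.

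**Figure D3:**
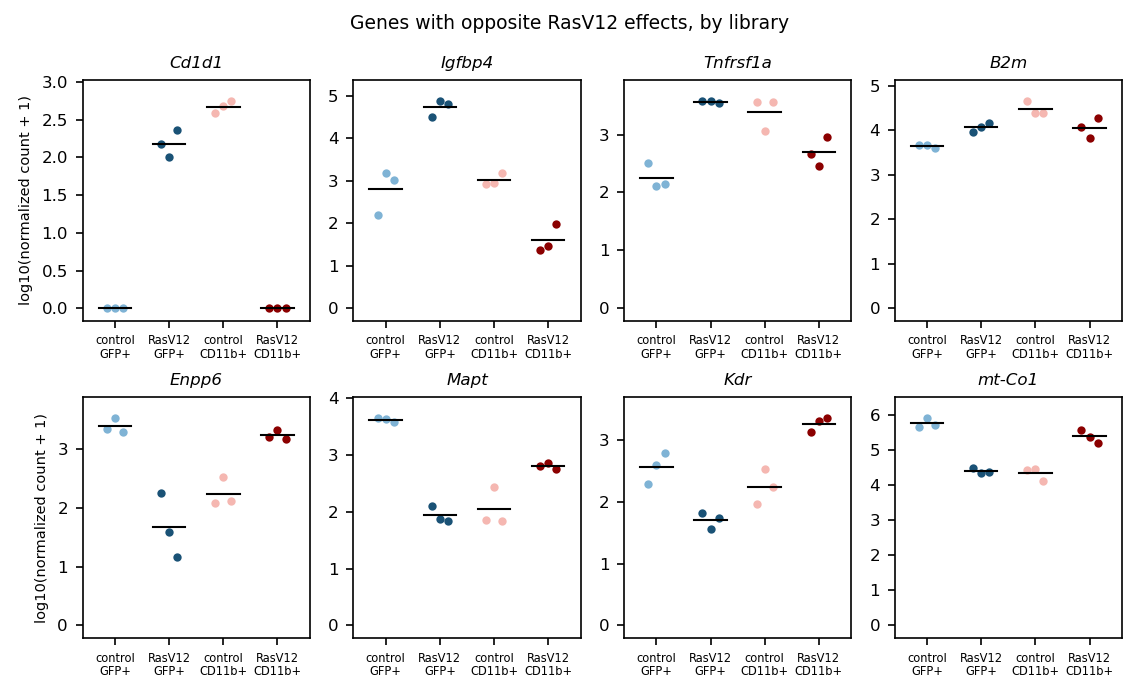
Normalized counts by library, as log10(normalized count + 1), for 4 genes that rose in GFP+ and fell in CD11b+ cells (top row) and 4 that did the reverse (bottom row). Each point is 1 library, 3 per group, and each bar the mean of the log values; in each gene the RasV12 points lie on opposite sides of the controls in the 2 populations.

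Genes that fell in GFP+ and rose in CD11b+ cells included genes of the mitochondrial chromosome and genes known from neurons, oligodendrocytes and vessels. Of the 61, 22 lie on the mitochondrial chromosome, 13 of them protein-coding, 11 are nuclear genes with clone names or without a protein product, and 28 are other nuclear protein-coding genes. The median effect was -4.16 in GFP+ and 3.65 in CD11b+ cells, and the median exon length was 1545 bases against 2719 for all genes tested. The mean in RasV12 CD11b+ libraries was at or under the background level for 6 of the 61.

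All 13 mitochondrially encoded protein genes, which specify subunits of the respiratory chain and ATP synthase, moved this way, against 0.204% of all genes. mt-Co1 (ENSMUSG00000064351.1, chrM:5328-6872), a subunit of cytochrome c oxidase, had 447048, 795433 and 511440 in control and 30549, 21852 and 23077 in RasV12 GFP+ libraries. In phagocytes the order was reversed, with 26408, 27694 and 13172 in control and 373836, 235073 and 158730 in RasV12 CD11b+ libraries. RasV12 GFP+ and control CD11b+ libraries overlapped in range, while RasV12 CD11b+ libraries stayed below control GFP+ libraries, with effects of -4.51 ± 0.32 and 3.50 ± 0.32 and a difference of 8.01 (95% interval 7.04 to 8.98, adjusted p = 1.53e-06). mt-Nd1 and mt-Nd4, subunits of complex I, had differences of 7.66 and 7.80 (adjusted p = 4.96e-06 and 5.55e-06). The 13 stayed called as higher differences after upper-quartile, quantile and FPKM scaling, after background subtraction, and without the shallow RasV12 CD11b+ libraries or control CD11b+ library 2. Counts on nuclear copies of mitochondrial sequence cannot be separated in these values, and the part of cell integrity or sorting in the mitochondrial share was not tested.

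Nuclear genes of the class included 3 marks of the oligodendrocyte line. Enpp6 (ENSMUSG00000038173.15, chr8:46986887-47096762), a choline phosphodiesterase of newly forming oligodendrocytes, had 2217, 3388 and 1983 in control and 178, 38.4 and 13.9 in RasV12 GFP+ libraries. Phagocytes went the other way, with 119.9, 338 and 132 in control and 1626, 2149 and 1512 in RasV12 CD11b+ libraries. RasV12 phagocytes and control GFP+ cells overlapped in range, with a difference of 9.02 (95% interval 6.54 to 11.49, adjusted p = 0.00115). Myrf, the transcription factor that turns on myelin genes, and St18, another factor of the line, had differences of 8.89 and 6.88. In RasV12 CD11b+ libraries the Myrf mean of 669 lay close to its background level, from 8562 exon bases at 59.0 to 90.1 background counts per kb. The St18 mean there was 1839 over 6464 exon bases, above its background level. The wider oligodendrocyte list did not follow: its 13 genes had a median effect of -9.40 in GFP+ and -1.42 in CD11b+ cells, and their summed counts were 13401 to 15891 in control and 6056 to 10805 in RasV12 CD11b+ libraries.

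Genes known from neurons included Mapt, Slc1a6 and Gria1. Mapt (ENSMUSG00000018411.17, chr11:104231390-104332090), the microtubule protein tau, had 4491, 4390.1 and 3779 in control and 128, 73.9 and 69 in RasV12 GFP+ libraries, and 70.5, 278 and 69 in control and 633, 731 and 574 in RasV12 CD11b+ libraries. Slc1a6, the glutamate transporter of Purkinje cells, had 583, 205 and 409 in control and 0.9, 4 and 1.1 in RasV12 GFP+ libraries, and 0, 6 and 6.5 in control and 152, 44.3 and 128 in RasV12 CD11b+ libraries. Gria1, a subunit of AMPA receptors, had 8726, 8329 and 8032 in control and 646, 2333 and 2170.2 in RasV12 GFP+ libraries, and 185, 154 and 267 in control and 686, 1312 and 749.5 in RasV12 CD11b+ libraries. The differences of these 3 genes were 8.11, 11.76 and 4.64 (adjusted p = 0.000434, 0.0019 and 0.0043). The background levels in RasV12 CD11b+ cells were 572, 163 and 459, beside mean counts of 646, 107.9 and 916. The Slc1a6 mean thus lay under its background level. A difference that stays called also holds the fall in GFP+ cells, -5.58 for Mapt and -7.08 for Slc1a6, and does not by itself show a rise in phagocytes beyond background. After background subtraction the difference stayed called for Mapt (8.53, adjusted p = 0.0147) and Slc1a6 (8.80, adjusted p = 0.000268) and was lost for Gria1 (6.09, adjusted p = 0.194) and for Slc4a4, a bicarbonate transporter of astrocytes (4.98 before, 1.96 after, adjusted p = 0.801). It was also lost for Sh3bgr and Slc7a14 (adjusted p = 0.0525 and 0.148). Summed counts of 16 neuronal markers, background included, were 1940 to 6311 in control and 6721 to 12217 in RasV12 CD11b+ libraries. As a list they did not follow in CD11b+ cells, with a median effect of -0.08, 1 called higher and 2 lower. The part of neuronal RNA in this class was not tested.

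A transporter and a receptor of the vessel wall stood clear of background. Slco1a4 (ENSMUSG00000030237.14, chr6:141805440-141856199), an organic anion transporter of the blood-brain barrier, had 1749.7, 2667 and 1986 in control and 13.5, 9.2 and 6.4 in RasV12 GFP+ libraries. Phagocytes had 353, 293 and 113 in control and 1052, 1828 and 1295 in RasV12 CD11b+ libraries, above a background level of 487, and its difference was 10.24 (95% interval 8.22 to 12.27, adjusted p = 6.76e-05). Kdr (ENSMUSG00000062960.10, chr5:75932827-75978458), the VEGF receptor of endothelial cells, had 195, 384 and 616 in control and 63.7, 35 and 53.3 in RasV12 GFP+ libraries, and 90.1, 338 and 170.2 in control and 1315, 1983 and 2251 in RasV12 CD11b+ libraries. RasV12 phagocyte libraries held the highest Kdr counts of the study, and the difference was 6.22 (adjusted p = 0.00489). Summed counts of 10 endothelial and pericyte markers were 616 to 2934 in control and 4483 to 5370 in RasV12 CD11b+ libraries, and 9801 to 13103 and 5812 to 8696 in control and RasV12 GFP+ libraries. Kdr is itself 1 of the 10, so its own counts are part of how the sums moved. Of the 10, 1 was called higher in CD11b+ cells, with a list median effect of 2.24. The part of vessel RNA in the rise of Kdr was not tested. The remaining named genes of the class were Tbata, known from thymus, brain and testis (12.70), Ppp1r14a, an inhibitor of myosin phosphatase (10.19), and Serp2, a small protein of the endoplasmic reticulum (9.01). Tbata was at 108, 864 and 125 in control and 7.2, 0 and 0.4 in RasV12 GFP+ libraries, and at 0.8, 0 and 0.9 in control and 57.9, 222 and 73.9 in RasV12 CD11b+ libraries. The mean of the latter, 117.8, lay under the background level of Tbata, from 2426 exon bases at 59.0 to 90.1 background counts per kb. Its difference after background subtraction was 8.47 (adjusted p = 0.00287). Members not named so far were Ttll5, Pclo, Mamld1, Itgb8, Nrxn3, Kcna2, Hrsp12, Car10, Dync1i1, Pitpnm3, Edil3, Slc6a15, Tekt5 and Ucma, with differences from 5.54 (Ttll5) to 12.05 (Ucma).

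Genes that rose in both populations included the secreted and matrix proteins Spp1 and Fn1. Of the 60, 41 were protein-coding, 19 had clone names or no protein product, and 3 were receptor genes of the kind used to measure background. A shared direction does not make the effects equal, so the difference is given with its 95% interval. It was called for 3 of the 60, Spp1, Cyp24a1 and Thbs2, all with the larger rise in GFP+ cells. In RasV12 CD11b+ libraries 17 of 60 were at or under their background level, the median mean count of control GFP+ libraries was 0.233, and without control CD11b+ library 1 or 3 the class shrank from 60 to 14 and 13 genes. Without control CD11b+ library 2 it grew to 346. For 59 of the 60 the libraries overlapped in neither effect, which the choice of genes called in both all but fixes, so nothing is read from it.

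Spp1 (ENSMUSG00000029304.14, chr5:104435118-104441050), which encodes osteopontin, a secreted ligand of integrins and Cd44, had 502, 144 and 389.6 in control and 356207, 188242 and 156359 in RasV12 GFP+ libraries. Phagocytes had 1795, 596 and 237 in control and 5138, 2370.3 and 7574 in RasV12 CD11b+ libraries. The rise was 9.48 ± 0.68 in GFP+ cells (adjusted p = 1.21e-05) and 2.83 ± 0.68 in CD11b+ cells (adjusted p = 0.0315). The difference of -6.65 (95% interval -8.72 to -4.58, adjusted p = 0.00244) corresponds to a 100.4-fold larger rise in GFP+ cells. The shared call was not made by edgeR (adjusted p = 0.306) or after background subtraction (smaller effect 2.85, adjusted p = 0.0545), and was lost without single libraries (control CD11b+ 3, RasV12 CD11b+ 1 or 3, or RasV12 GFP+ 2), where the adjusted p was 0.0527 to 0.139.

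Spp1 had the highest mean count in RasV12 GFP+ cells of the genes that rose in both populations, and its promoter is shown for comparison with that of B2m. The 160 bases before its first RefSeq start in GRCm38.p6, chr5:104434951-104435110 on the plus strand, have in capitals an ETS motif (GAGGAAG) from -113 to -107 and an interferon response element, read on the minus strand, from -157 to -148.
Spp1: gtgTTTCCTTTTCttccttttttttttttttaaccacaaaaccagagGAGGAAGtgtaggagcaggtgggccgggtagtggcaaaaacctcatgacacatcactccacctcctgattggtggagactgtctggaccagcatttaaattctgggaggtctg

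Among the 36 promoters of 31 genes of the class, 6 held the ETS motif, 3 the AP-1 motif, 2 the interferon response element and 1 the NF-kB motif, 16.7%, 8.33%, 5.56% and 2.78%, beside 10.6%, 6.75%, 2.98% and 1.21% of all promoters. In the class that fell in both populations these counts were 4, 0, 4 and 0 of 43 promoters, and in the class that fell in GFP+ and rose in CD11b+ cells 3, 1, 0 and 1 of 25.

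Fn1 (ENSMUSG00000026193.15, chr1:71585520-71653200), fibronectin, had 745, 1792 and 1003 in control and 24099.9, 8705 and 13589 in RasV12 GFP+ libraries. Counts in phagocytes were 1499, 1332 and 509 in control and 3886, 3589 and 9196 in RasV12 CD11b+ libraries, above a background level of 888. Its effects of 3.68 ± 0.53 and 2.32 ± 0.53 differed by -1.36 (95% interval -2.98 to 0.26, adjusted p = 0.353). Ccnd2, cyclin D2, had 567, 914 and 314 in control and 9965, 11508 and 13279.7 in RasV12 GFP+ libraries, and 217, 706 and 29.5 in control and 1413, 1612 and 1677 in RasV12 CD11b+ libraries, with a difference of -1.17 (95% interval -3.74 to 1.40). Plk2, a stress-induced kinase, had 824, 431 and 453 in control and 13967, 10673 and 9985 in RasV12 GFP+ libraries, and 252, 540.3 and 299 in control and 1907, 2088 and 705 in RasV12 CD11b+ libraries, with a difference of -2.36 (95% interval -3.90 to -0.82, adjusted p = 0.0812). The shared call was lost for Ccnd2 in 10 of the 12 fits that left out 1 library (adjusted p up to 0.114), for Plk2 in 7 (up to 0.136) and for Fn1 in 3 (control CD11b+ 1 or 3 or RasV12 CD11b+ 3, up to 0.118). It was also lost after background subtraction, with smaller effects of 2.26, 4.40 and 1.86 for Fn1, Ccnd2 and Plk2 (adjusted p = 0.0564, 0.29 and 0.064), and was not made by edgeR (adjusted p = 0.237, 0.255 and 0.246).

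The genes with the largest shared rises had few reads in controls. Htr2a (ENSMUSG00000034997.5, chr14:74640840-74709494), the serotonin receptor 2A, had no reads in control and 105, 120.4 and 296 in RasV12 GFP+ libraries, at least 245-fold higher, and went from 14.9, 77.8 and 5.2 to 722, 1063 and 3449.7 in CD11b+ cells. The difference was -1.16 (95% interval -4.60 to 2.27), and the shared call was kept after background subtraction. Aebp1 (ENSMUSG00000020473.13, chr11:5861947-5872088), a matrix-associated carboxypeptidase-like protein, had 239, 26.5 and 38.7 in control and 1749.9, 1239.9 and 1988 in RasV12 GFP+ libraries, and rose in CD11b+ cells from 0 in the 3 controls to 147, 161 and 322, at least 409-fold, but around a background level of 308. Its shared call was lost after background subtraction (adjusted p = 0.446). The same was seen for Tspan11, a tetraspanin, Dach1, a transcription factor, and Colgalt2, a collagen galactosyltransferase (adjusted p = 0.436, 0.483 and 0.189). For Sorcs2, a sortilin-family receptor, Evc2, a cilium protein, Bmper, a BMP-binding protein, and Thbs2, thrombospondin 2, nothing was left in RasV12 CD11b+ cells after the subtraction. Prrx1, a homeobox factor of mesenchymal cells, had a difference of -1.39 and lost its shared call in 8 of the 12 fits without 1 library, and Thbs2 and Cyp24a1 in 10 and 7. Cyp24a1, the vitamin D 24-hydroxylase, was at 0 in control and at 1128, 1971 and 1418 in RasV12 GFP+ libraries, and at 49.4, 26.9 and 14.8 in control and 495, 382 and 219.8 in RasV12 CD11b+ libraries, where its background level was 270.5. The other members of the class with gene symbols that are no clone names or receptors were Dhrs9, Cpz, Klhl1, Tfap2c, Rad51ap1, Opcml, Arntl2, Disp2, H2-Q2, Adcy8, Glyctk, Ppfibp1, Ptn, Adamtsl1, Slc6a4, Chn1os1, Fam110c, Sorbs2, Efhc2, Ptprg, Cald1, Ptk7, Pax9 and Spats2l, and the lowest of their differences was -3.49 (Dhrs9).

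Genes that fell in both populations had high counts in control GFP+ cells and are all protein-coding. The median of the 41 fell from 8223 to 584 in GFP+ cells and from 1568 to 232 in CD11b+ cells, with median effects of -3.74 and -3.18, and the difference was called for 1 of them. In RasV12 CD11b+ libraries 23 of 41 were at or under the background level. For 40 of the 41 the libraries overlapped in neither effect, which the choice of genes called in both all but fixes, so nothing is read from it.

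Sirpa (ENSMUSG00000037902.18, chr2:129592835-129632228), the inhibitory receptor by which phagocytes read CD47, had 5785, 4823 and 4718 in control and 498, 763 and 913 in RasV12 GFP+ libraries. Phagocytes had more, at 38727, 15044 and 57091 in control and 3561, 3239.8 and 2038 in RasV12 CD11b+ libraries. The effects were -2.85 ± 0.43 (adjusted p = 0.00166) in GFP+ and -3.49 ± 0.43 (adjusted p = 0.00158) in CD11b+ cells, with a difference of -0.63 (95% interval -1.94 to 0.67, adjusted p = 0.63). The shared call of Sirpa was kept in all 28 alternatives, with adjusted p from 3.74e-06 to 0.0261. Of 16 tested genes of do-not-eat-me signals and inhibitory receptors it was the only one called in both effects, and Cd274, the checkpoint ligand PD-L1, the only one with a called difference (-7.71, adjusted p = 0.0162), from 0 in control to 227, 76.8 and 209.9 in RasV12 GFP+ libraries with 129, 41.9 and 149 in control and 134, 16.6 and 144 in RasV12 CD11b+ libraries. The Cd274 call was lost without control CD11b+ library 3 (adjusted p = 0.0555).

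Slc2a1 (ENSMUSG00000028645.11, chr4:119108711-119137983), the glucose transporter GLUT1, had 5520.4, 15688 and 8114 in control and 676, 451 and 804 in RasV12 GFP+ libraries, and 2454, 769 and 1482 in control and 66.8, 16.6 and 375 in RasV12 CD11b+ libraries. S1pr1, a sphingosine-1-phosphate receptor, had 8615, 7115 and 10972 in control and 399.7, 601 and 773 in RasV12 GFP+ libraries, and 2711, 756 and 2262 in control and 13.4, 161 and 314 in RasV12 CD11b+ libraries. Their differences were -0.38 (95% interval -3.07 to 2.32) and -0.27 (95% interval -3.03 to 2.48), intervals that span several fold either way. Both shared calls were lost after background subtraction (adjusted p = 0.36 and 0.307), although the smaller effect stayed about as large, at -3.85 beside -3.83 and at -3.96 beside -3.94. They were also lost without control CD11b+ library 1 or 3, among others.

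Cst3, the protease inhibitor cystatin C and an abundant transcript of microglia and astrocytes, had 71866, 28708 and 33297 in control and 14444, 17123 and 11146 in RasV12 GFP+ libraries, and 147002, 108183 and 134149 in control and 33685, 22585 and 24455 in RasV12 CD11b+ libraries. Sgk1, a kinase induced by glucocorticoids, had 20856, 10074 and 7079.6 in control and 2518, 2581 and 2010 in RasV12 GFP+ libraries, and 8566, 9337 and 14753 in control and 3306, 1855 and 1032 in RasV12 CD11b+ libraries. Tsc22d3, a glucocorticoid-induced leucine zipper protein, had 14154, 16716 and 20026 in control and 639.9, 1808 and 1345 in RasV12 GFP+ libraries, and 8675, 6252 and 14337 in control and 1778, 2132 and 2817 in RasV12 CD11b+ libraries. The differences of these 3 genes were -0.73 ± 0.40, -0.24 ± 0.63 and 1.79 ± 0.56 (log2 ± SE), none of them called (adjusted p = 0.344, 0.89 and 0.0892). The shared fall of Cst3 was not called by edgeR (adjusted p = 0.112). Itm2b, a membrane protein, and Ckb, brain creatine kinase, had differences of -0.83 and 0.69. Both lost the shared call without several single libraries (adjusted p up to 0.144 and 0.119), and Tsc22d3 without control CD11b+ library 3 (0.0677).

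Neural genes present in control phagocyte libraries also fell in both. Tppp, a tubulin-binding protein of oligodendrocytes, Pcp2, a Purkinje cell protein, and Aplp1, of the amyloid precursor family, had differences of 1.82, 3.61 and -2.84. Pcp2 for instance had 21019.7, 16159 and 20270.3 in control and 46.5, 28.1 and 37.9 in RasV12 GFP+ libraries, and 147, 149.7 and 89 in control and 0, 27.7 and 0 in RasV12 CD11b+ libraries. Mgll, monoacylglycerol lipase, Adap2, an Arf GTPase-activating protein, and Sult1a1, a sulfotransferase, had differences of -0.61, 0.01 and 2.36. Without control CD11b+ library 1 or 3 the shared call was lost for Tppp, Pcp2, Mgll, Adap2 and Sult1a1, and for Tppp, Mgll and Sult1a1 without other single libraries too. Their adjusted p without 1 library rose to 0.097, 0.08, 0.125, 0.079 and 0.144. Aplp1 lost its shared call without control GFP+ 1 or RasV12 GFP+ 1 or 2 (adjusted p up to 0.0796). Adap2 was higher in phagocytes, at 3267, 2244 and 3608 in control and 232, 133 and 333 in RasV12 CD11b+ libraries, than in GFP+ cells, at 79, 237 and 175 in control and 10.4, 14.9 and 6.1 in RasV12 GFP+ libraries, and its effects were the most alike of the named genes, a difference of 0.01 with a 95% interval of -2.27 to 2.29. Other members were Cables1, Rnd2, Ldhb, Smim10l2a, Ypel3, Sort1, Rogdi, Cyp27a1, Cdk16, Foxn3, Sparc, Map1lc3b, Cyb5a, Tubb4a, Tuba4a, Glul, Tsc22d4, Asrgl1, Tprn, Rab33a, Gdf10, Kif1a, Dusp26, Ttyh1 and Calb2.

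**Figure D4:**
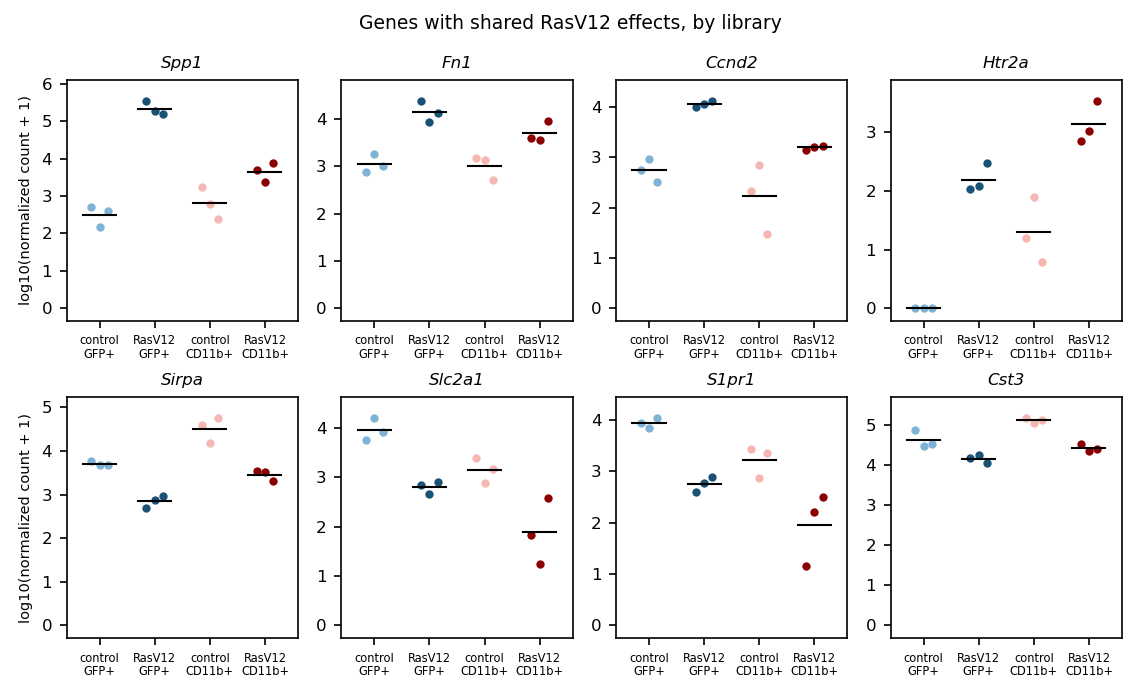
Normalized counts by library, as log10(normalized count + 1), for 4 genes that rose (top row) and 4 that fell (bottom row) in both populations with RasV12. Each point is 1 library, 3 per group, and each bar the mean of the log values; Spp1 rises much further in GFP+ than in CD11b+ cells, while Sirpa falls by 2.85 and 3.49 on the log2 scale.

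Beyond the genes called in both effects, several of the largest differences had a rise in GFP+ cells. Gal, the neuropeptide galanin, was at 2.4, 3.2 and 1 in control and 17067, 12057 and 8806 in RasV12 GFP+ libraries and had no reads in the 6 CD11b+ libraries, and its difference of -11.96 (adjusted p = 0.000667) was not called by edgeR (adjusted p = 1). Plau, the plasminogen activator urokinase, was at 0.6, 0 and 0 in control and 1720.1, 2537 and 1473 in RasV12 GFP+ libraries, and at 21.9, 211 and 95.9 in control and 35.7, 27.7 and 23.4 in RasV12 CD11b+ libraries (-12.03, adjusted p = 0.000671). Hpse, heparanase, had no reads in control and 1278, 4942 and 1582 in RasV12 GFP+ libraries, at least 3066-fold higher, with 113, 247 and 42.5 in control and 356, 0 and 178 in RasV12 CD11b+ libraries (-12.49, adjusted p = 0.013). Lcn2, the siderophore-binding lipocalin 2, differed in the other way: its GFP+ effect was not called (adjusted p = 0.137), and it fell from 2062, 775 and 2263 to 0, 0 and 60.1 in CD11b+ cells (-13.54, adjusted p = 0.0107). Card9, an adaptor of pattern recognition receptors, Fblim1, an actin-linked adhesion protein, Tor4a, Calhm2, Mrgpre and Bcl6b had differences of -13.36, -13.86, -13.11, -12.68, -12.65 and -12.57. Bcl6b lost its call without control CD11b+ 3 or RasV12 GFP+ 1 or 2 (adjusted p up to 0.0659). Card9 had 1.2, 0 and 1 in control and 664, 543 and 663 in RasV12 GFP+ libraries, and 554, 157 and 453 in control and 31.2, 0 and 57.7 in RasV12 CD11b+ libraries.

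On the other side stood neural genes that were nearly lost from GFP+ cells. Ugt8a, an enzyme of myelin lipid synthesis, had 5571, 12770 and 11704 in control and 28.9, 1.7 and 69.4 in RasV12 GFP+ libraries, and 188, 127 and 80.7 in control and 2589, 426 and 1175 in RasV12 CD11b+ libraries. The CD11b+ effect of 3.12 ± 1.05 was not called (adjusted p = 0.0911), while the difference of 12.16 was (adjusted p = 0.000793). Klk6, an oligodendrocyte protease, Olfm3, Ralyl, Cplx1, a complexin of synaptic vesicle release, Syt9, Hbb-bt and Kctd8 had differences of 12.91, 12.90, 12.53, 11.998, 11.98, 11.79 and 11.78. The Ralyl difference rests in CD11b+ cells on 1 RasV12 library with 593 counts beside 4.5 and 0, and was lost without control CD11b+ 1 or 3 or RasV12 GFP+ 1 or 3. Syt9 lost its call in 9 of the 12 fits that left out 1 library (adjusted p up to 0.0897), and Cplx1 without RasV12 GFP+ 1 (0.0502). Hbb-bt and Hbb-bs are close copies of the beta-globin gene whose reads the counting may have split, and control GFP+ libraries held 5317, 435672 and 98626 counts of Hbb-bs.

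Gene lists were read by how many members had a called difference, beside 2.06% higher and 2.34% lower of all genes, with a median difference of 0.07. Among 18 genes of MAPK/ERK output the difference was lower for 6 and higher for 1, with a median effect of 3.97 in GFP+ and -1.58 in CD11b+ cells. Fosl1, an AP-1 subunit, had 4.8, 0 and 23.4 in control and 2347, 1182 and 826 in RasV12 GFP+ libraries, and 20.4, 9 and 14.8 in control and 0, 0 and 0 in RasV12 CD11b+ libraries (-11.89, adjusted p = 0.00272). Dusp6, the phosphatase that switches ERK off, had 1688, 8.8 and 1018 in control and 21647, 31211 and 23173 in RasV12 GFP+ libraries, and 10906, 5758 and 12349 in control and 165, 294 and 1402 in RasV12 CD11b+ libraries (-11.10, adjusted p = 0.00837). Ccnd1, cyclin D1, rose by 5.77 ± 0.67 in GFP+ cells with an effect of -0.14 ± 0.67 in CD11b+ cells. Spry4, Etv5 and Epha2 were the other lower ones (-9.61, -4.57 and -10.77), and Etv1, an ETS factor, the higher one (3.67, adjusted p = 0.0211). No member was called in CD11b+ cells in either direction.

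Of 14 p53 targets and CDK inhibitors the difference was lower for 6 (Cdkn2a, Cdkn2b, Mdm2, Bax, Pmaip1 and Gdf15), with a median of -4.66. Bax, a death effector, had 1366, 1382 and 1102 in control and 5541, 3932 and 3528 in RasV12 GFP+ libraries, and 1163, 986 and 1079 in control and 200.5, 454 and 576 in RasV12 CD11b+ libraries (-3.25, adjusted p = 0.012), and Pmaip1, which encodes Noxa, a difference of -11.04. Of 28 cell cycle genes tested, 11 rose in GFP+ cells, none was called in CD11b+ cells, where the median effect was 1.87, and Mcm7, a subunit of the replicative helicase, alone had a called difference (-5.79, adjusted p = 0.0379), lost in 6 of the 12 fits without 1 library (up to 0.106).

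Secreted growth factors and proteases had 7 of 19 lower differences (Areg, Ereg, Angpt2, Plau, Hpse, Spp1 and Gal), with a median of -3.90. Chemokines and cytokines had 3 of 23. Ccl2, the monocyte chemoattractant, had 0, 0 and 1 in control and 1703, 1400.4 and 811 in RasV12 GFP+ libraries, and 608, 263 and 148 in control and 784, 233 and 850.4 in RasV12 CD11b+ libraries (-9.05, adjusted p = 0.00169), so that GFP+ cells came up from near 0 to within or above the range of phagocytes. Cxcl16 and Tgfb1 differed by -5.41 and -4.66, both lost without control CD11b+ 1 or 3 and other single libraries (adjusted p up to 0.0964 and 0.0932). Of 18 chemokine and cytokine receptors 4 were lower (Tnfrsf1a, Tgfbr1, Tgfbr2 and Csf1r). Tgfbr1, the kinase receptor for TGF-beta, had 20.8, 0 and 21.4 in control and 658, 903 and 1078 in RasV12 GFP+ libraries, and 23237, 22010.5 and 34719 in control and 2482, 5039.7 and 3319 in RasV12 CD11b+ libraries (-9.69, adjusted p = 0.00163), and Tgfbr2 differed by -7.85. Of 18 interferon response genes 2 were lower, Irf8, a transcription factor of myeloid cells (-7.99), and Ifitm3, an antiviral membrane protein (-3.05).

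The engulfment and lysosome lists had only lower differences among those called, except for 1 higher engulfment gene after background subtraction and without control CD11b+ library 2. The engulfment list had 6 of 25 lower differences (Gas6, Itgav, Itgb3, Lrp1, Fcgr3 and Itgb2), a median of -2.48 and 5 falls and no rise called in CD11b+ cells. Lrp1, a receptor for apoptotic cells and lipoproteins, had 5369.6, 1213 and 2869 in control and 8498, 12422 and 11997 in RasV12 GFP+ libraries, and 20817, 3387 and 17107 in control and 1689, 731 and 1579 in RasV12 CD11b+ libraries (-5.12, adjusted p = 0.00793), but after background subtraction the adjusted p was 0.0781. The lysosome list had 7 of 18 lower, among them Lamp2, Cd68, Ctsa, Ctsd, Hexa and Grn, with a median of -2.82. Lamp2 lost its call without control CD11b+ library 3 (adjusted p = 0.0519). Ctsd, the protease cathepsin D, had 5982, 3404 and 4302 in control and 24798, 24493 and 25485 in RasV12 GFP+ libraries, and 155810, 21058 and 116085 in control and 23275, 16659 and 19573 in RasV12 CD11b+ libraries (-4.37, adjusted p = 0.0063), and control CD11b+ library 2 lay within the range of the RasV12 libraries. Without that library, which has 28.5% background, 14 of the 18 were lower, and without RasV12 CD11b+ 1 and 2, 3 were.

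Myeloid identity genes had lower differences where any were called. The homeostatic microglia list had 4 of 15 (Gpr34, Olfml3, Csf1r and P2ry6), the border macrophage list 2 of 10 (Cd163 and Pf4), the disease-associated list 3 of 17 (Spp1, Cd9 and Ctsd), monocyte markers 1 of 15 (Itga4) and neutrophil markers 1 of 11 (Camp). Csf1r, the receptor that maintains microglia, had 137908, 34007 and 194559 in control and 13846, 13973 and 21227 in RasV12 CD11b+ libraries, and 23, 1.7 and 3.6 in RasV12 GFP+ libraries after 0 in controls (-5.34, adjusted p = 0.0269). Part of such a difference is a rise from 0 to a few counts in GFP+ libraries, and the Csf1r call was lost without control CD11b+ 1 or 3, RasV12 CD11b+ 1 or 2 or RasV12 GFP+ 1 (adjusted p up to 0.106). Among the others, leaving out 1 of the 12 libraries lost the call of Cd163 in 8 fits (adjusted p up to 0.104), Camp in 6 (up to 0.0659), Gpr34 in 4 (up to 0.101) and P2ry6 in 2 (up to 0.0586), control CD11b+ 1 and 3 among them for each. Without RasV12 CD11b+ 1 and 2 no homeostatic gene was called. A higher difference was called for 1 disease-associated gene without control CD11b+ library 2 and for 1 monocyte gene in the FPKM values. Pf4, a chemokine of border macrophages and platelets, had 54.6, 36.9 and 0 in control and 3587, 2988 and 1830.4 in RasV12 GFP+ libraries, and 759, 1236 and 922 in control and 369.9, 354 and 218 in RasV12 CD11b+ libraries (-9.35, adjusted p = 0.00767), a rise in GFP+ cells beyond the level in phagocytes. Summed counts of 10 border macrophage markers were 57.6 to 240.1 in control and 2136 to 3671 in RasV12 GFP+ libraries. Pf4 is itself 1 of the 10 and makes up most of the RasV12 sums, so they largely repeat its rise. Of the 10, 3 were called higher in GFP+ cells, with a median effect of 1.72. The part of border macrophage RNA in the rise of Pf4 was not tested.

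Lists of neural, vessel and red blood cells had only higher differences among those called, also under the other scalings, while without RasV12 CD11b+ libraries 1 and 2 the astrocyte list had 1 lower. They were 8 of 13 for oligodendrocytes, 8 of 16 for neurons, 5 of 14 for astrocytes and Bergmann glia, 2 of 10 for endothelial cells and pericytes and 3 of 5 for erythroid genes, with medians of 6.81, 5.07, 2.65, 4.60 and 9.95. Mog, a myelin protein, had 16959, 15960.3 and 15234 in control and 2.7, 0 and 1.4 in RasV12 GFP+ libraries, and 40.8, 25.4 and 56 in control and 53.5, 16.6 and 2.4 in RasV12 CD11b+ libraries (11.50, adjusted p = 0.00148). Gfap, the filament protein of reactive astrocytes, had 11135, 11589.5 and 7345 in control and 3160.3, 3962 and 5657 in RasV12 GFP+ libraries, and 228, 832 and 453 in control and 2398, 4851 and 3998 in RasV12 CD11b+ libraries, and here the rise in CD11b+ libraries was called (3.02 ± 0.46, adjusted p = 0.00522) and the fall in GFP+ cells was not (adjusted p = 0.135). After background subtraction 7 of 13 oligodendrocyte genes but 1 of 16 neuronal genes stayed called, and Snap25, a synaptic fusion protein, went from 4.90 to 1.28 (adjusted p = 0.816). Of the other lists, matrix genes had 1 higher (Col3a1, 5.63) and 1 lower (Mmp14, -4.28) of 20, hypoxia and glycolysis 1 higher (Aldoc, 4.76) and 1 lower (Adm, -8.34) of 20, lipid handling 1 higher (Hmgcs1, 2.90) and 1 lower (Abca1, -3.61) of 18, and neural stem and progenitor genes 1 lower of 11. The calls of Col3a1, Mmp14, Abca1 and Hmgcs1 were lost in 3, 4, 8 and 8 of the 12 fits without 1 library, control CD11b+ library 3 among them for each. No difference was called among 13 complement, 12 immediate early and 9 lymphocyte genes.

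Among the genes named above, the call of the difference was also lost after background subtraction for Cplx1, Kctd8, Mrgpre, Ccnd1, Mmp14, Col3a1, Tgfb1, Tap1, Adm, Abca1, Hmgcs1, Csf1r, Cd163 and Perp, with adjusted p from 0.0522 to 0.212. The difference itself did not vanish, and for some it became larger, going from -5.91 to -9.49 for Ccnd1, -4.28 to -8.53 for Mmp14, 5.63 to 8.93 for Col3a1, -4.66 to -8.40 for Tgfb1, -4.61 to -9.91 for Tap1, -3.61 to -7.43 for Abca1 and -6.55 to -10.76 for Cd163. For the others it became smaller, from 11.998 to 9.49 for Cplx1, 11.78 to 7.75 for Kctd8, -12.65 to -10.52 for Mrgpre, -8.34 to -6.80 for Adm, 2.90 to 2.39 for Hmgcs1, -5.34 to -3.34 for Csf1r and -10.89 to -9.25 for Perp. Lrp1, whose call was lost too, went from -5.12 to -9.55. edgeR did not call the difference for Eef1kmt4, Rhbdf2, Cplx1, Kctd8, Col3a1, Hmgcs1 and Camp, with adjusted p from 0.0509 to 0.269. The reverse sign was not seen for any of them.

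Of the named genes with a shared direction, Adap2, Aplp1, Sult1a1, Prrx1, Cyp24a1, Itm2b and Sgk1 also lost the shared call after background subtraction, with smaller effects of -4.57 for Adap2, -3.75 for Aplp1, -4.38 for Sult1a1, 3.49 for Prrx1, 4.01 for Cyp24a1 and -2.28 for Sgk1 and adjusted p from 0.0537 to 0.448. edgeR did not make the shared call for Htr2a, Sorcs2, Tspan11, Dach1, Evc2, Bmper, Colgalt2, Tppp, Slc2a1, Prrx1, Thbs2, Cyp24a1, Itm2b and Ckb either, with adjusted p from 0.0535 to 0.4.

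**Figure D5:**
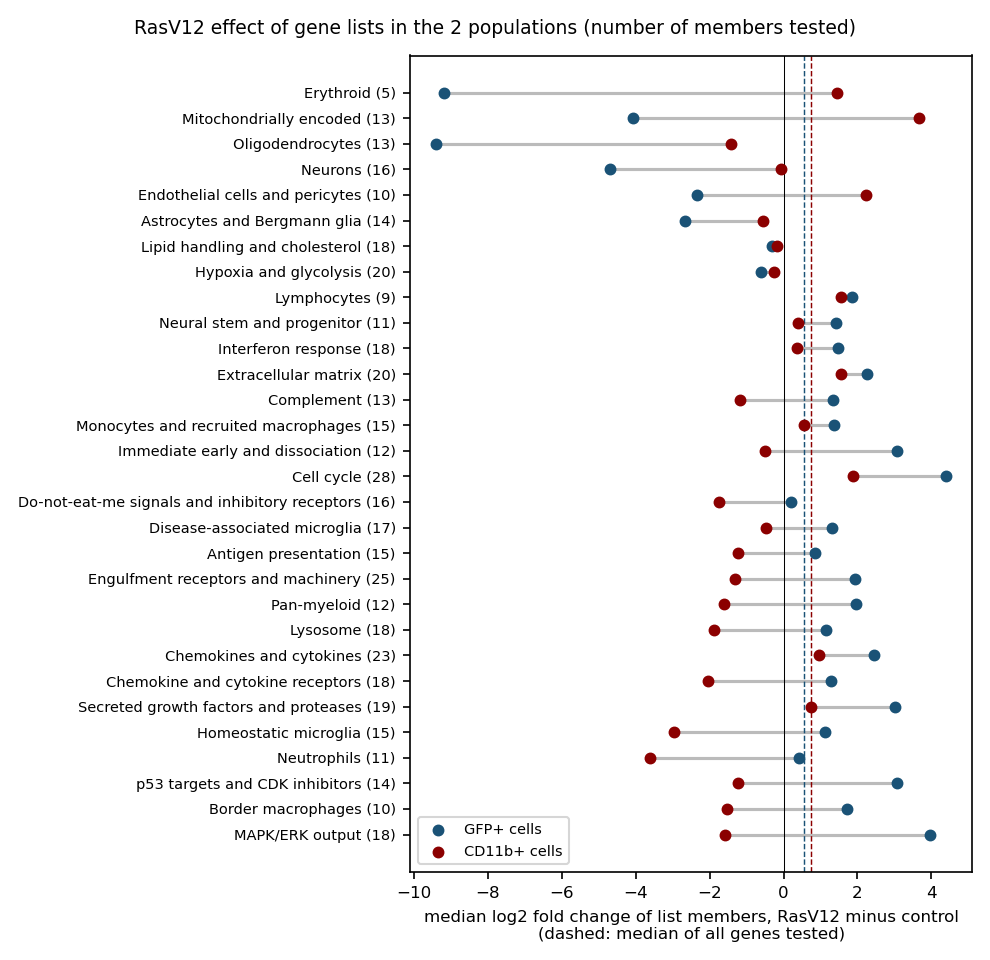
Median RasV12 effect of the tested members of 30 gene lists (x axis, log2 fold change, number of members in parentheses) in GFP+ cells (blue) and CD11b+ cells (red), ordered by the median difference. Dashed lines are the medians of all genes tested, 0.56 and 0.74. MAPK/ERK output, with 3.97 and -1.58, and erythroid genes, with -9.18 and 1.44, lie at opposite ends. Mitochondrially encoded genes, with -4.06 and 3.66, lie next to the erythroid genes.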

How the data were processed

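RNA from GFP+ and CD11b+ cells was sequenced in 12 libraries, prepared with a SMARTer low-input and a Nextera XT kit per the labels' protocols, which keep no strand, so overlapping and antisense genes cannot be told apart. The submitters' processing notes name GRCm38.p6, DESeq2 1.20.0, Subread 1.6.2, featureCounts, HISAT2 2.1.0 and bcl2fastq 2.17.1.14, without roles. The authors deposited a signal per gene (normalized counts, not whole numbers) and a table of FPKM values. In each library 99.6 to 100% of the deposited signal values were whole multiples of 1 step within 0.05, which gave the reads.

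Genes that reached 10 normalized counts in 3 or more libraries entered limma 3.58.1 (limma-trend, R 4.3.3) on log2(normalized count + 1), with 4 group means, all 12 libraries sharing 1 estimate of spread, and Benjamini-Hochberg adjustment at 0.05 over 29835 genes. Every adjusted p below comes from this fit unless edgeR or DESeq2 is named. The background level was the count per kb of exon of 1521 receptor genes times a gene's exon length. Annotation by GENCODE matched 98.5% of genes. Promoters are from RefSeq. Alternatives, 29 in all, included edgeR 4.0.16 and DESeq2 1.42.0 on the reads, FPKM with 0.1 added, other scalings, filters and pseudocounts, and leaving out each library. On simulated data for this comparison (30033 genes) the test recovered 0% of 4-fold, 8.96% of 16-fold and 21.2% of 64-fold differences, with 1 false call. Only 67, 67 and 66 genes were changed there, in RasV12 CD11b+ libraries alone, and no other gene had a RasV12 effect. With 1312 differences called in the real data, the adjustment was stricter in the simulation. Its shares are therefore not the sensitivity of the test reported here.

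Genes and lists were chosen with earlier results of these data known. Named genes are, among protein-coding genes with a mean of at least 100 and no overlap of libraries in each effect called, the 8 largest differences in each opposite pattern, the 8 largest shared changes each way by the smaller effect, and the 8 largest other differences each way. Up to 3 per list are named as well, and the mean and overlap rules were not applied to these. Igfbp4, Serpine2, Ifngr1, Slc29a1, Perp, Pdia3, Hsp90b1, Itgb1, Mapt, Gria1, Slc4a4, Ccnd2, Plk2, Prrx1, Thbs2, Cyp24a1, Cst3, Itm2b, Tsc22d3, Sgk1 and Ckb were added after their values were seen, as were members given by a difference alone. "At least" folds set an empty group at 3 reads over the group. Some genes of these classes and lists are counted but not reported here.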

Additional observations from a re-analysis of the deposited data

Results flagged for a closer look

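The test of the difference itself, the limma contrast between the RasV12 effects of the 2 populations, passed an adjusted p of 0.05 for these named genes, and each value is the CD11b+ effect minus the GFP+ effect on the log2 scale. They are given as values only, and the cause of each difference was not tested.

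Among genes that rose in GFP+ and fell in CD11b+ cells the difference was -16.13 for Cd1d1, -15.06 for Chst7, -14.22 for Efnb1, -13.58 for Cd300lb, -13.27 for Fchsd1, -12.78 for Eef1kmt4 and -12.64 for Ltb4r1. It was -12.11 for Rhbdf2, -13.66 for Cdkn2b, -6.71 for Tnfrsf1a, -2.81 for B2m, -7.70 for Fcgr3, -11.11 for Igfbp4 and -6.51 for Serpine2. Further values were -4.62 for Ifngr1, -8.67 for Slc29a1, -10.89 for Perp, -3.91 for Pdia3, -3.08 for Hsp90b1 and -3.61 for Itgb1.

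Among genes that fell in GFP+ and rose in CD11b+ cells the difference was 12.70 for Tbata, 11.76 for Slc1a6, 11.68 for Sh3bgr, 11.65 for Slc7a14, 10.24 for Slco1a4, 10.19 for Ppp1r14a and 9.02 for Enpp6. It was 9.01 for Serp2, 8.01 for mt-Co1, 7.66 for mt-Nd1, 7.80 for mt-Nd4, 6.22 for Kdr, 8.11 for Mapt and 4.64 for Gria1. Further values were 4.98 for Slc4a4.

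Among genes with a shared direction the difference was -6.65 for Spp1, -6.37 for Thbs2 and -6.89 for Cyp24a1.

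Among genes with at most 1 effect called and a lower difference the difference was -13.86 for Fblim1, -13.54 for Lcn2, -13.36 for Card9, -13.11 for Tor4a, -12.68 for Calhm2, -12.65 for Mrgpre and -12.57 for Bcl6b. It was -12.49 for Hpse, -11.89 for Fosl1, -5.91 for Ccnd1, -11.10 for Dusp6, -5.79 for Mcm7, -11.04 for Pmaip1 and -3.25 for Bax. Further values were -4.28 for Mmp14, -11.96 for Gal, -12.03 for Plau, -9.05 for Ccl2, -4.66 for Tgfb1, -5.41 for Cxcl16 and -9.69 for Tgfbr1. It was -7.85 for Tgfbr2, -7.99 for Irf8, -3.05 for Ifitm3, -4.61 for Tap1, -7.71 for Cd274, -8.85 for Itgb2 and -5.12 for Lrp1. Further values were -4.37 for Ctsd, -9.93 for Cd68, -3.50 for Lamp2, -8.34 for Adm, -3.61 for Abca1, -5.34 for Csf1r and -6.29 for P2ry6. It was -6.18 for Gpr34, -4.16 for Cd9, -9.35 for Pf4, -6.55 for Cd163, -7.70 for Itga4 and -8.09 for Camp.

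Among genes with at most 1 effect called and a higher difference the difference was 12.91 for Klk6, 12.90 for Olfm3, 12.53 for Ralyl, 12.16 for Ugt8a, 11.998 for Cplx1, 11.98 for Syt9 and 11.79 for Hbb-bt. It was 11.78 for Kctd8, 5.63 for Col3a1, 4.76 for Aldoc, 2.90 for Hmgcs1, 7.39 for Mobp, 11.50 for Mog and 4.90 for Snap25. Further values were 8.55 for Stmn2, 8.43 for Pvalb, 5.53 for S100b, 4.27 for Gfap, 9.35 for Pdgfrb, 10.86 for Hbb-bs and 9.95 for Hba-a1.

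Of the genes that the report does not describe, the call was lost after background subtraction for Stmn2, Pvalb, Pdgfrb and Hba-a1, with differences of 6.00, 6.75, 6.27 and 8.02 and adjusted p of 0.284, 0.092, 0.111 and 0.106. edgeR did not call Pdgfrb (adjusted p = 0.127). Leaving out 1 library lost the call of Pdgfrb in 7 of 12 fits (control GFP+ 1 or 3, control CD11b+ 1 or 3, RasV12 GFP+ 1 or 2, or RasV12 CD11b+ 2, adjusted p up to 0.0818) and that of Hba-a1 without control CD11b+ 3 (0.0528).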

How the results depend on the processing

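Beside 615 higher and 697 lower differences, 102 opposite and 101 shared genes, the 29 alternatives kept many counts within 1.5 times, and the cause was not tested for those that moved. DESeq2 gave 1459, 1670, 284 and 404, and array weights 1392, 1710, 351 and 408. edgeR gave 269 higher, 744 lower, 37 opposite and 34 shared genes. Lower differences numbered 1070 after upper-quartile scaling, 1921 after background subtraction and 1814 with both, the last added after seeing the data. A pseudocount of 8 gave 1024 higher, 194 opposite and 171 shared genes, no filter 64 opposite and 56 shared, and quantile normalization 59 shared. Without the shallow RasV12 CD11b+ libraries 1 and 2 there were 53 opposite genes. Leaving out 1 library at a time gave 292 to 1206 higher, 286 to 1055 lower, 33 to 302 opposite and 22 to 444 shared genes. The most came without control CD11b+ library 2 (1206 higher, 302 opposite, 444 shared) and, for lower differences, without RasV12 CD11b+ library 3 (1055). The fewest came without control CD11b+ library 3 (292, 286 and 33) and, for shared genes, library 1 (22). Same-numbered libraries of the 2 populations correlated by 0.0006 to 0.0377 and 3 of 6 correlated best with their own number, so the numbers are not treated as pairs. A replicate block gave 536, 637, 93 and 74, and a replicate block within genotype 334 higher and 461 lower differences. At 2951629 and 3642570 reads, RasV12 CD11b+ libraries 2 and 1 resolve steps of 5.54 and 4.46 normalized counts, so low genes there rest on a few reads. With 3 libraries a group, large differences can be missed.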
